A study of Mus musculus with 8 samples.

Results

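The collagen genes were taken as all genes on the array whose symbol is Col followed by a type number, the letter a and a chain number. There were 44 of them, from 27 collagen types, measured by 64 of the 55681 probes that were not controls. A total of 34 had a signal well above the local background in every tumour of at least 1 group and were tested together with all 14131 genes that met this filter. They comprised 10 of 11 fibrillar, 5 of 6 basement membrane and 19 of 27 other collagens. The remaining 10 (Col4a3, Col6a4, Col6a6, Col10a1, Col13a1, Col19a1, Col22a1, Col23a1, Col24a1 and Col28a1) did not pass in any group, and no value is given for them. A gene that passed only through the group in which it was high had to differ there, so counts over the 34 do not speak for the family as a whole.

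Each of the 16 samples was a piece of an MMTV-PyMT mammary carcinoma, in which the mouse mammary tumour virus promoter drives the polyoma middle T oncogene in mammary epithelium, grown at the orthotopic site in wild-type FVB mice. All groups therefore shared the transgene, the strain and the site, and they differed in passage and in treatment. RANK-Fc is a soluble form of the receptor RANK that captures its ligand, and it was injected intraperitoneally at 10 mg/kg 3 times per week. In passage 2, 3 tumours had it in both passages (named prior and current), 3 in passage 2 alone (current), 3 in passage 1 alone (prior) and 2 were controls. In passage 1, 3 tumours had RANK-Fc and 2 were controls. The labels name the prior treatment neoadjuvant and the current one adjuvant, and placing the neoadjuvant treatment in passage 1 is a reading of their group codes. The labels name RANK-Fc in passage 1 adjuvant as well. The codes in the labels all differ and were taken to mark separate tumours, so p-values measure the spread between these tumours. Whether tumours of a group grew from the same donor tumour is not given. The labels give neither ages nor what the controls received, and they do not link a passage 2 tumour to the passage 1 tumour it grew from.

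Collagens are triple helices of 3 chains that are secreted as procollagens and assembled outside the cell. Fibrillar types I, III and V form the interstitial fibres made largely by fibroblasts, types II, XI and IX build the fibrils of cartilage, and type IV forms the sheet-like network of basement membranes under epithelium and around vessels. In mammary carcinoma, dense fibrillar collagen and its crosslinking are known features of the tumour stroma.

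Levels are log2 normalised intensities, on which a step of 1 is a 2-fold difference, and because each gene is read by its own probe they are compared between tumours and never between genes. All 8 arrays lay on 1 slide and were read at 1 scan time, no spot was saturated, and 47.5% to 56.5% of the spots of a channel were well above background. All 11 epithelial markers were tested, and their mean level lay between 11.66 and 12.05 in every tumour. The 2 tumours on an array shared it, which the fit takes into account. A difference given below with its standard error (SE) was fitted with the dye and the array, so it need not equal the difference of the group means. RNA was taken from whole tumour pieces, so fewer cells of a type and less RNA per cell cannot be told apart in any value below.

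On average over the fibrillar genes, collagen levels were low in both passage 2 controls and high in all passage 1 tumours, and the current RANK-Fc tumours spread over the whole range. For each gene the deviation from its mean over the 16 tumours was taken. The mean deviation of the 10 fibrillar collagens was -0.79, -0.30 and -0.36 in the 3 tumours with prior and current RANK-Fc, -0.31, -0.72 and 0.95 with current RANK-Fc, 0.41, -0.31 and 0.40 with prior RANK-Fc, and -0.65 and -0.72 in the passage 2 controls. In passage 1 it was 0.40, 0.69 and 0.23 with RANK-Fc and 0.43 and 0.63 in the controls. The passage 1 tumours and the passage 2 controls did not overlap, and the tumours with prior and current RANK-Fc were all below the mean. The 5 basement membrane collagens averaged -0.50, 0.14 and -0.23 with prior and current RANK-Fc, -0.00, -0.66 and 0.34 with current RANK-Fc, 0.25, 0.06 and 0.36 with prior RANK-Fc, -0.58 and -0.69 in the passage 2 controls, 0.30, 0.38 and 0.30 with RANK-Fc in passage 1 and 0.25 and 0.30 in its controls. Within this class Col4a6 ranged over 5.27 log2 units, against 1.10 or less for the other 4 genes. The median deviation over the 5 genes, which 1 gene moves less than the mean, was -0.44 and -0.08 in the passage 2 controls and lay between -0.04 and 0.15 in the passage 1 tumours. The 19 other collagens had group means of -0.33 ± 0.16 (SD, n = 3) with prior and current RANK-Fc, 0.01 ± 0.59 (n = 3) with current RANK-Fc, 0.09 ± 0.26 (n = 3) with prior RANK-Fc and -0.43 ± 0.12 (n = 2) in the passage 2 controls, against 0.34 ± 0.12 (n = 3) with RANK-Fc and 0.26 ± 0.02 (n = 2) without it in passage 1.

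**Figure D1:**
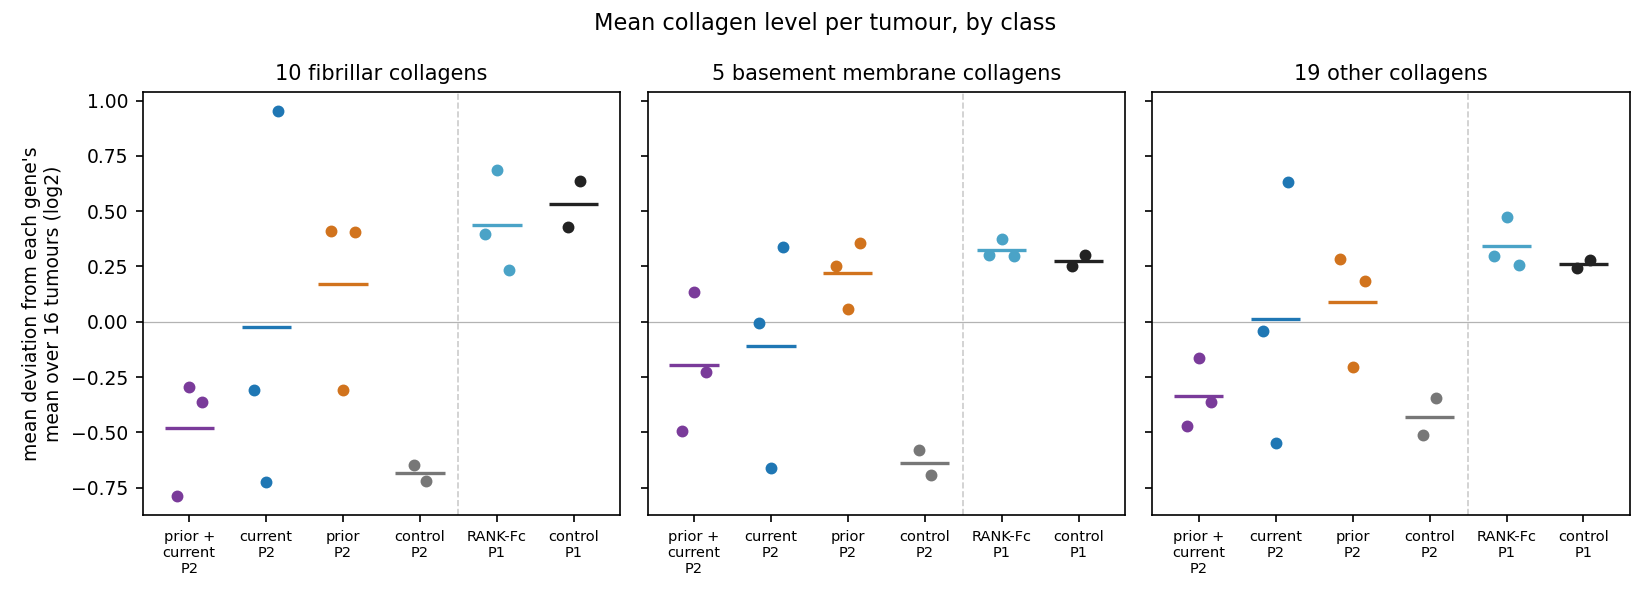
Mean deviation of the collagens of each class from each gene's own mean over 16 tumours (log2, vertical axis) in the 6 groups (horizontal axis, P1 and P2 for the passages); points are tumours and bars are group means. By these means both passage 2 controls lie below 0 and the 5 passage 1 tumours above 0 in all 3 classes, although the basement membrane medians run from -0.04 to 0.15 in passage 1, and the current RANK-Fc tumours run from -0.72 to 0.95 for the fibrillar genes.

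Type I collagen, the main protein of interstitial fibres, is built of chains encoded by Col1a1 and Col1a2. Col1a1 stood at 12.18, 12.71 and 12.50 with prior and current RANK-Fc, 12.64, 12.54 and 15.53 with current RANK-Fc, 14.71, 12.82 and 13.28 with prior RANK-Fc and 12.53 and 12.53 in the passage 2 controls. Col1a1 levels in passage 1 were 13.67, 14.57 and 13.78 with RANK-Fc and 14.09 and 14.30 in the controls. Current RANK-Fc replicate 3 and prior RANK-Fc replicate 1 were above every passage 1 tumour, and all other passage 2 tumours were below passage 1. Col1a2 ran in parallel, at 13.44, 13.93 and 13.36 with prior and current RANK-Fc, 13.70, 13.80 and 16.39 with current RANK-Fc, 15.54, 13.33 and 14.50 with prior RANK-Fc and 13.72 and 12.89 in the passage 2 controls. Col1a2 levels in passage 1 were 14.85, 15.07 and 14.52 with RANK-Fc and 14.69 and 15.13 in the controls. Col3a1, the chain of type III collagen that mixes with type I in soft tissue, stood at 11.45, 11.82 and 12.03 with prior and current RANK-Fc, 11.99, 11.62 and 14.44 with current RANK-Fc, 12.81, 11.16 and 12.17 with prior RANK-Fc and 11.94 and 11.51 in the passage 2 controls. Col3a1 levels in passage 1 were 12.91, 12.86 and 12.52 with RANK-Fc and 13.36 and 12.95 in the controls. The same current RANK-Fc tumour was the highest for all 3 genes.

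That tumour, current RANK-Fc replicate 3, was the highest of all 16 for 15 of the 34 collagens, among them Col1a1, Col1a2, Col3a1, Col5a1, Col12a1 and Col14a1; the next most frequent highest tumours led 4 genes each. Its mean level over the 15 fibroblast markers, none of them a collagen, was 11.29, against 9.51 and 9.18 in the other current RANK-Fc tumours and 9.52 and 8.83 in the passage 2 controls. Over all 16 tumours this list ranged from 8.83 to 11.29, and prior RANK-Fc replicate 1, the next highest tumour for Col1a1, stood at 10.23. Skeletal muscle markers, of which 6 of 12 were tested, were also higher in those same tumours, at 8.48 and 9.25, against 7.29 to 7.73 in the other 14. For the 9 of 10 pericyte and smooth muscle markers tested, the mean deviation in current RANK-Fc replicate 3 was 0.63, against -0.36 to 0.35 in the other tumours. Among them Tagln, an actin-binding protein of smooth muscle, stood at 13.28, against 11.06 to 11.81 elsewhere. The part of any of these cell types in the collagen levels was not tested.

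**Figure D2:**
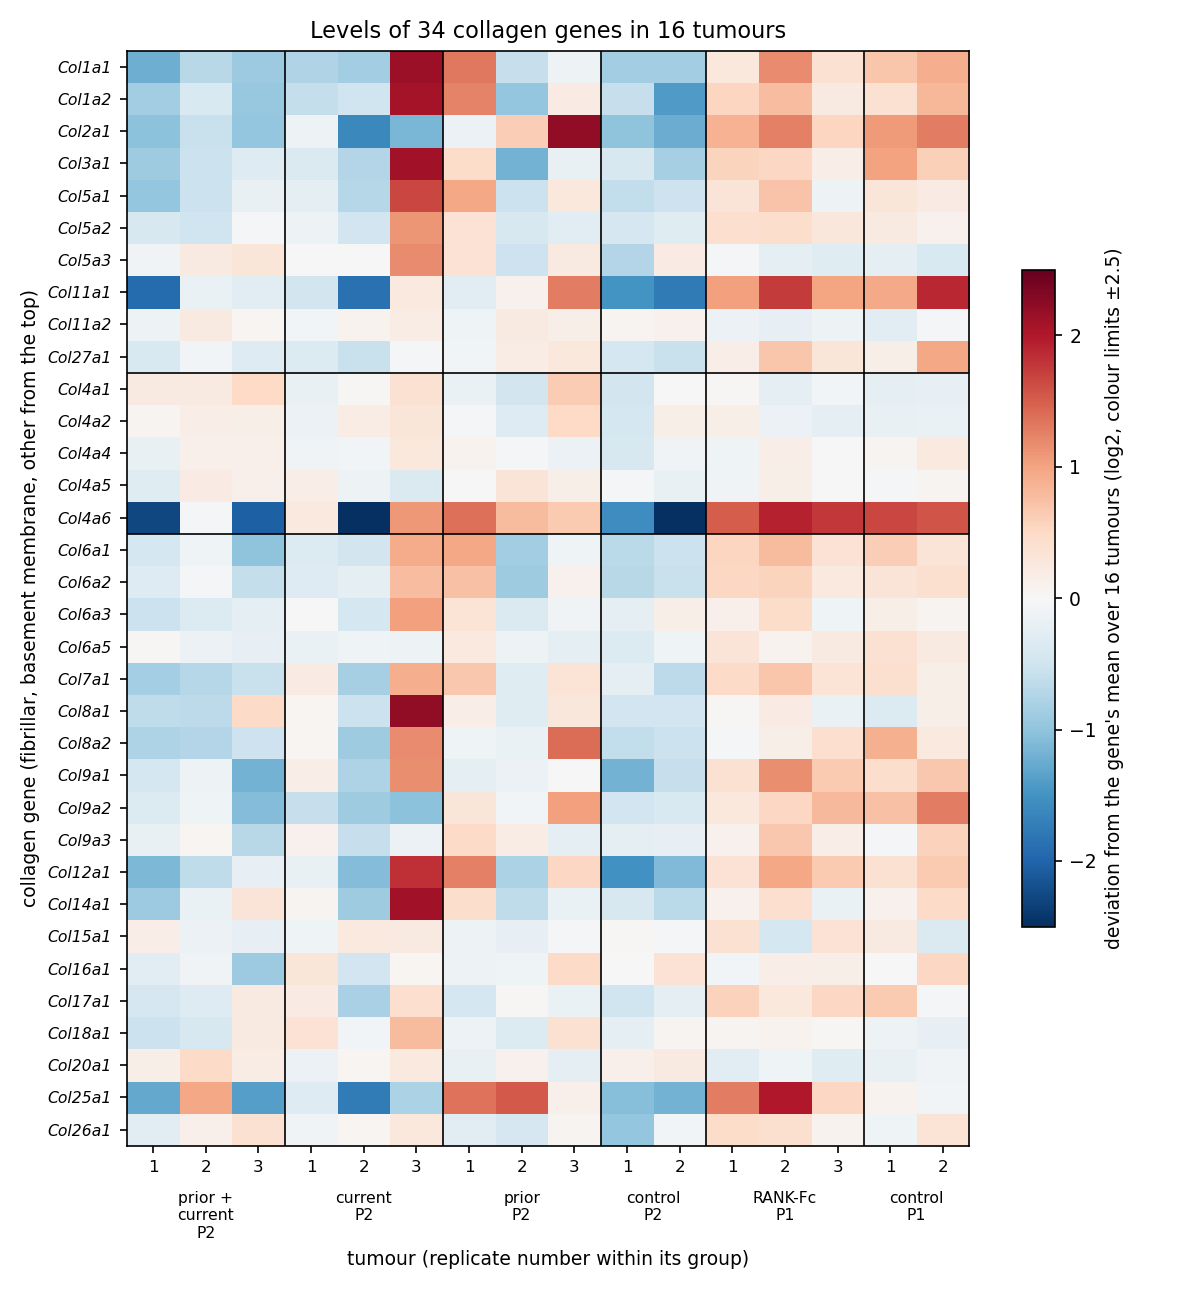
Deviation of each of 34 collagen genes (rows, by class) from its own mean over 16 tumours, in log2 units shown by colour with limits at ±2.5, for every tumour (columns, by group; P1 and P2 are the passages). Current RANK-Fc replicate 3 is the highest tumour for 15 genes, while Col2a1, Col11a1, Col9a2 and Col4a6 are above their own means in all passage 1 tumours. In the prior RANK-Fc group Col4a6 is above its mean in every tumour and the other 3 genes lie on both sides of theirs.

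None of the interstitial fibrillar genes passed the threshold in any comparison. Under current RANK-Fc, Col1a1 differed from the passage 2 controls by 0.82 ± 0.69 (SE) and Col1a2 by 1.17 ± 0.68, with limma adjusted p values of 1.00 for both. Without current RANK-Fc replicate 3, the median difference of the 10 fibrillar genes in that comparison was 0.04, against 0.55 with it, and without current RANK-Fc replicate 2 it was 1.07. Under prior RANK-Fc the differences from control were 0.88 ± 0.69 for Col1a1 (limma adjusted p = 0.876) and 0.06 ± 0.64 for Col3a1 (limma adjusted p = 0.99). Passage 2 controls differed from passage 1 controls by -1.51 ± 0.79 for Col1a1, -1.43 ± 0.77 for Col1a2 and -1.27 ± 0.72 for Col3a1 on the log2 scale, with limma adjusted p values of 0.398, 0.418 and 0.451. The 2 tumours of each control group did not overlap for these 3 genes.

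Of the fibrillar genes best known from cartilage, Col11a1, Col27a1 and Col2a1 showed another pattern, which Col11a2 did not share. Col11a1, a chain of the type XI collagen that sets fibril diameter, stood at 6.54, 8.29 and 8.18 with prior and current RANK-Fc, 8.005, 6.59 and 8.70 with current RANK-Fc, 8.19, 8.56 and 9.73 with prior RANK-Fc and 6.97 and 6.69 in the passage 2 controls. Col11a1 levels in passage 1 were 9.49, 10.20 and 9.44 with RANK-Fc and 9.40 and 10.34 in the controls. Among passage 2 tumours only the prior RANK-Fc replicate 3 reached the passage 1 levels. Col11a2, another type XI chain, was not lower in passage 2. Its mean level was 6.72 with current RANK-Fc and 6.74 in the passage 2 controls. In passage 1 it was 6.50 with RANK-Fc and 6.49 in the controls. There it was well above background in 2 of 3 and 1 of 2 tumours, so no exact size is read from these means.

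Col11a1 fell by 3.04 on the log2 scale in passage 2 controls against passage 1 controls (SE 0.64, limma adjusted p = 0.0245), to a level 8.21-fold lower. Over the passage 2 and passage 1 tumours without prior RANK-Fc, averaged over control and treated groups, it fell by 2.53 (SE 0.42, limma adjusted p = 0.00227). Col27a1, which encodes a fibrillar collagen of cartilage and other tissues, stood at 6.49, 6.82 and 6.56 with prior and current RANK-Fc, 6.53, 6.32 and 6.85 with current RANK-Fc, 6.81, 7.07 and 7.14 with prior RANK-Fc and 6.45 and 6.33 in the passage 2 controls. Col27a1 levels in passage 1 were 7.04, 7.57 and 7.19 with RANK-Fc and 7.03 and 7.84 in the controls. Col27a1 met the filter only through the passage 1 and prior RANK-Fc groups, where it was high. It was not well above background in either passage 2 control, so their level was at least 2.07-fold lower than that of the passage 1 controls (limma adjusted p = 0.0279). Such a bound sets the mean of the brighter group against, on each array, the dim probe's own signal or the lowest signal well above background, whichever is higher. Averaged over both treatment states, Col27a1 was above background in 2 of 5 passage 2 tumours and in all 5 of passage 1, and was at least 1.83-fold lower in passage 2 (limma adjusted p = 0.00242). Leaving out any 1 of the 4 control tumours ended the Col11a1 call between the controls, with differences from -3.50 to -2.58 (limma adjusted p from 0.0644 to 0.343), and left the Col27a1 call standing in 1 of 4 cases, without control passage 1 replicate 1 (limma adjusted p = 0.0406). Both averaged calls were kept when any of the 10 tumours was left out.

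Col2a1, the chain of type II collagen that forms the bulk of cartilage fibrils, stood at 6.75, 7.22 and 6.81 with prior and current RANK-Fc, 7.66, 6.18 and 6.64 with current RANK-Fc, 7.64, 8.41 and 9.99 with prior RANK-Fc and 6.79 and 6.55 in the passage 2 controls. Col2a1 levels in passage 1 were 8.65, 9.04 and 8.31 with RANK-Fc and 8.84 and 9.06 in the controls. In tumours without prior RANK-Fc the passages did not overlap, and Col2a1 fell by 2.06 ± 0.41 in passage 2 (limma adjusted p = 0.00681, averaged over treatment states). Leaving out any of the 10 tumours kept this call. Col2a1 was well above background in 4 of the 5 passage 2 tumours compared, so the fitted fall is not an exact size. All 3 prior RANK-Fc tumours lay above the tumours with prior and current RANK-Fc and above both controls. With prior RANK-Fc alone the difference from control was 1.90 ± 0.55, which did not pass (limma adjusted p = 0.307).

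**Figure D3:**
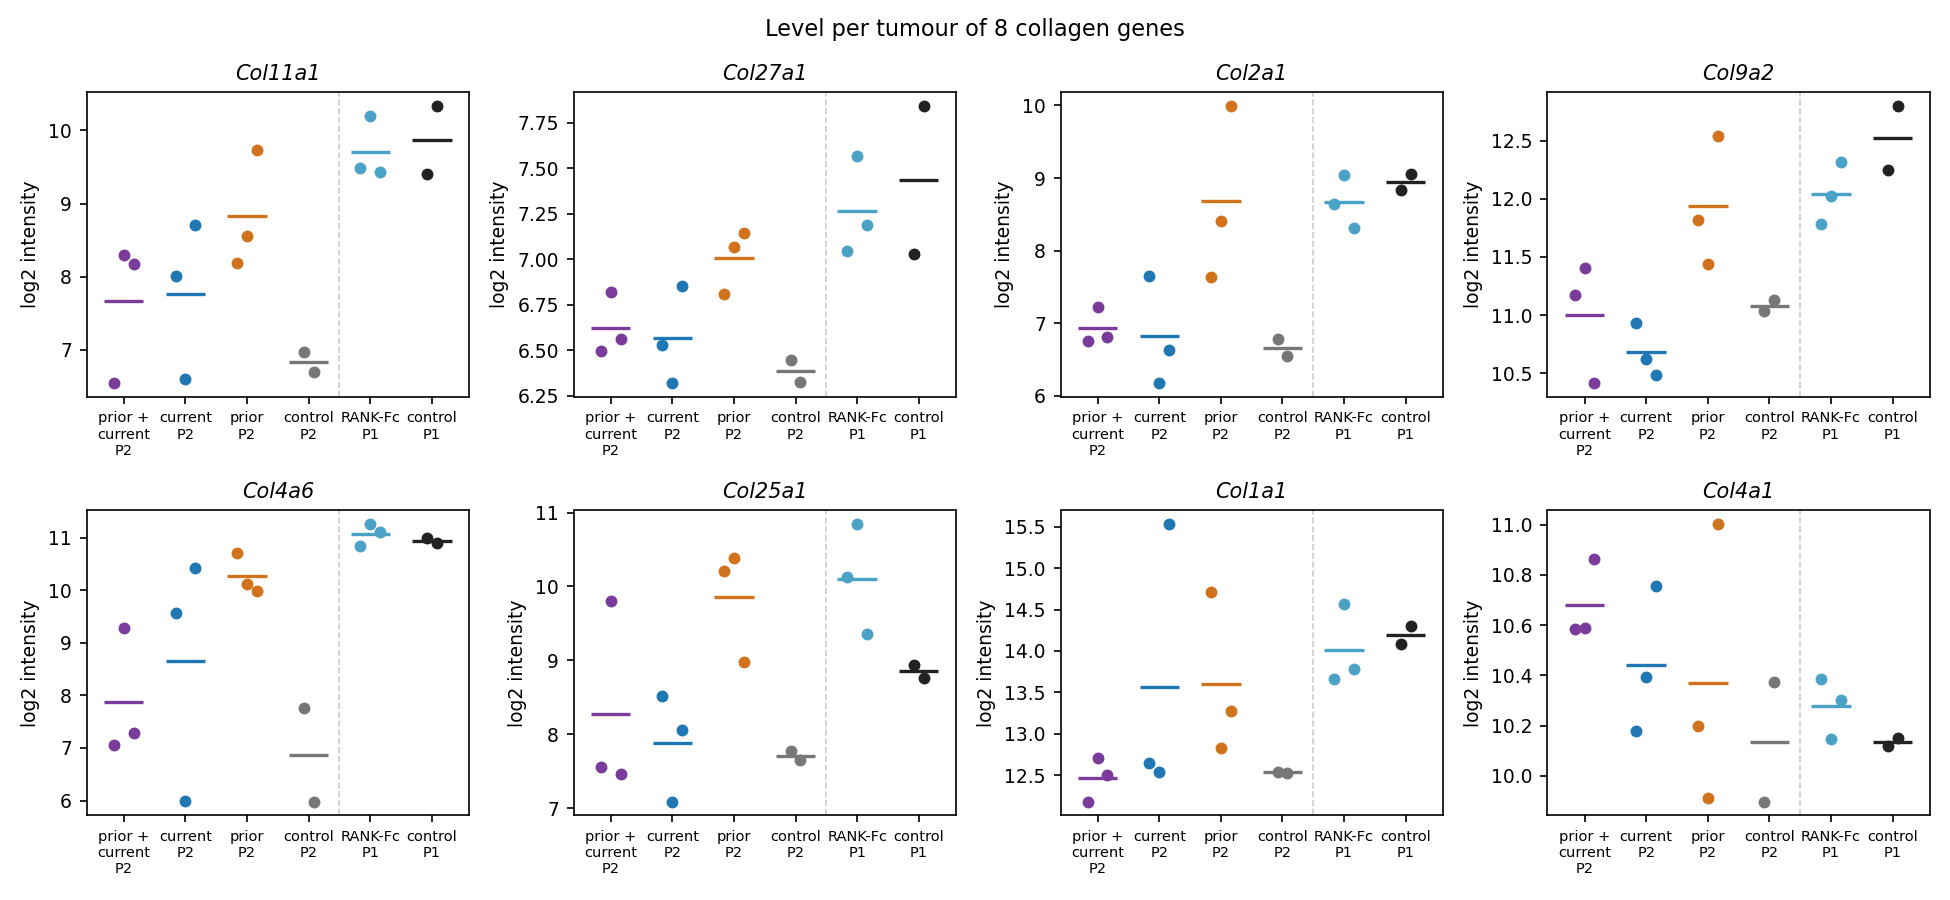
Level (log2 intensity, vertical axes with their own ranges) of 8 collagen genes in each tumour by group (P1 and P2 are the passages); points are tumours and bars are group means. Col11a1, Col27a1, Col2a1, Col9a2 and Col4a6 are high in both passage 1 groups and low in the passage 2 controls, with the prior RANK-Fc group between or near passage 1; Col1a1 has 1 current RANK-Fc tumour at 15.53, and Col4a1 spans 9.90 to 11.002.

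Type IV collagen is assembled from chains encoded as head-to-head gene pairs, and by the brightest probes the pairs behaved differently. Col4a1 and Col4a2, whose chains form the network found in nearly all basement membranes, moved together: the difference between their deviations had an SD of 0.14 over the 16 tumours and ranged from -0.16 to 0.35. The windows around their start sites share 78 bases on chromosome 8. They are shown to make this shared stretch visible, which is in capitals in both windows; sequences are from RefSeq, build GRCm38.p6, each 5′ to 3′ on the gene's own strand and running from 250 bases before to 50 after the annotated start.
Col4a1 promoter, chr8:11312777-11313076, minus strand: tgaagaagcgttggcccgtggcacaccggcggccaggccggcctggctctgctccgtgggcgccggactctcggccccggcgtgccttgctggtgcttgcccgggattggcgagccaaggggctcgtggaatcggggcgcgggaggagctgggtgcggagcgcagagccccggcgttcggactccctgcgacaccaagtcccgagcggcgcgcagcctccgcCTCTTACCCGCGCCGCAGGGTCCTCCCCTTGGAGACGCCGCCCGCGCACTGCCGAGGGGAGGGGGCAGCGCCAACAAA
Col4a2 promoter, chr8:11312555-11312854, plus strand: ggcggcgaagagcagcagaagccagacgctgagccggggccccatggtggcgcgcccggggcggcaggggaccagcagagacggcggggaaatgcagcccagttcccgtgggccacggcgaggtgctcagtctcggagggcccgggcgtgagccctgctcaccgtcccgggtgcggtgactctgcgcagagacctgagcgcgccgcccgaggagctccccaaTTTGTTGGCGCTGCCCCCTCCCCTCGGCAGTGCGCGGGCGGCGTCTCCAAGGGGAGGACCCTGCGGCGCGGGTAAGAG

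Col4a1 stood at 10.59, 10.59 and 10.86 with prior and current RANK-Fc, 10.18, 10.40 and 10.76 with current RANK-Fc, 10.20, 9.91 and 11.002 with prior RANK-Fc and 9.90 and 10.37 in the passage 2 controls. Col4a1 levels in passage 1 were 10.39, 10.15 and 10.30 with RANK-Fc and 10.12 and 10.15 in the controls. All 3 tumours with prior and current RANK-Fc were above both passage 2 controls, by a fitted 0.42 ± 0.26 (limma adjusted p = 0.672). Col4a2 stood at 10.60, 10.705 and 10.68 with prior and current RANK-Fc, 10.38, 10.72 and 10.83 with current RANK-Fc, 10.51, 10.20 and 11.02 with prior RANK-Fc and 10.09 and 10.67 in the passage 2 controls. Col4a2 levels in passage 1 were 10.67, 10.38 and 10.31 with RANK-Fc and 10.34 and 10.37 in the controls. Its passage 2 values spanned those of passage 1. Between passages Col4a1 differed by 0.08 ± 0.19 and Col4a2 by 0.08 ± 0.16 (limma adjusted p = 0.818 and 0.794), and neither passed in any comparison.

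Col4a6, a chain known from the basement membranes of skin and smooth muscle, had the widest range of all 34 genes, at least 5.27 log2 units. It was read by the brighter of its 2 probes that passed the filter. That probe was well above background in 14 of 16 tumours. The 2 lowest values, in current RANK-Fc replicate 2 and control passage 2 replicate 2, only bound the Col4a6 level there. Fitted differences that include either tumour are therefore not exact sizes. It stood at 7.06, 9.28 and 7.29 with prior and current RANK-Fc, 9.57, 5.99 and 10.42 with current RANK-Fc, 10.71, 10.12 and 9.99 with prior RANK-Fc and 7.77 and 5.98 in the passage 2 controls. Col4a6 levels in passage 1 were 10.85, 11.26 and 11.11 with RANK-Fc and 10.99 and 10.90 in the controls. Every passage 1 tumour was above every passage 2 tumour, and the nearest to passage 1 were the 3 prior RANK-Fc tumours and current RANK-Fc replicate 3. Averaged over treatment states Col4a6 fell by 3.08 ± 0.69 in passage 2 (limma adjusted p = 0.0125), and the call was lost without control passage 1 replicate 1 (limma adjusted p = 0.0516) or control passage 2 replicate 2 (limma adjusted p = 0.0776). The difference of 3.14 ± 0.92 between prior RANK-Fc and control did not pass (limma adjusted p = 0.315). The dimmer probe of Col4a6, which was well above background in all 16 tumours, gave -0.47 between passages and 0.34 for prior RANK-Fc. These are the same directions with far smaller sizes, so the wide range and large fall of Col4a6 rest on the brighter probe.

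Its partner Col4a5, whose start window lies 842 bases from that of Col4a6 on chromosome X, ranged over 0.68 log2 units in all. The difference between the deviations of the pair had an SD of 1.82, with Col4a6 read by its brighter probe. Col4a4, a chain best known from the kidney filter, was dim throughout, at 6.52, 6.83 and 6.84 with prior and current RANK-Fc, 6.62, 6.64 and 6.97 with current RANK-Fc, 6.80, 6.66 and 6.55 with prior RANK-Fc and 6.31 and 6.62 in the passage 2 controls. Col4a4 levels in passage 1 were 6.60, 6.87 and 6.71 with RANK-Fc and 6.78 and 6.95 in the controls. It did not pass in any comparison.

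Among the other collagens, Col9a2, Col25a1 and Col6a5 fell between passages. Col9a2, a chain of the type IX collagen that coats cartilage fibrils, stood at 11.17, 11.41 and 10.42 with prior and current RANK-Fc, 10.93, 10.62 and 10.48 with current RANK-Fc, 11.82, 11.44 and 12.54 with prior RANK-Fc and 11.04 and 11.13 in the passage 2 controls. Col9a2 levels in passage 1 were 11.78, 12.02 and 12.31 with RANK-Fc and 12.25 and 12.80 in the controls. In tumours without prior RANK-Fc the passages did not overlap, and Col9a2 fell by 1.35 ± 0.25 (limma adjusted p = 0.00448). Leaving out any of the 10 tumours kept this call too. Col9a1, another chain of type IX, stood at 11.82, 12.15 and 11.08 with prior and current RANK-Fc, 12.44, 11.50 and 13.43 with current RANK-Fc, 12.04, 12.12 and 12.28 with prior RANK-Fc and 11.08 and 11.69 in the passage 2 controls. Col9a1 levels in passage 1 were 12.65, 13.42 and 12.91 with RANK-Fc and 12.71 and 12.94 in the controls. It was highest in current RANK-Fc replicate 3, unlike Col9a2, and differed by -0.95 ± 0.31 and did not pass (limma adjusted p = 0.0639).

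Col25a1, a transmembrane collagen known from neurons, stood at 7.56, 9.80 and 7.46 with prior and current RANK-Fc, 8.52, 7.09 and 8.05 with current RANK-Fc, 10.21, 10.38 and 8.97 with prior RANK-Fc and 7.77 and 7.65 in the passage 2 controls. Col25a1 levels in passage 1 were 10.12, 10.84 and 9.36 with RANK-Fc and 8.94 and 8.77 in the controls. In passage 1 all 3 RANK-Fc tumours were above both controls. It fell by 1.76 ± 0.47 in passage 2 (limma adjusted p = 0.029), a call kept without current RANK-Fc replicate 1, current RANK-Fc replicate 3 or RANK-Fc passage 1 replicate 3 and lost without any 1 of the other 7 tumours. The limma adjusted p values ran from 0.0242 to 0.104. Its 2 other probes gave -0.50 and -1.002. Col6a5, a chain of type VI collagen, stood at 6.35, 6.18 and 6.11 with prior and current RANK-Fc, 6.16, 6.21 and 6.19 with current RANK-Fc, 6.57, 6.20 and 6.09 with prior RANK-Fc and 5.98 and 6.21 in the passage 2 controls. Col6a5 levels in passage 1 were 6.65, 6.41 and 6.54 with RANK-Fc and 6.70 and 6.54 in the controls. It was above background in 6 of 16 tumours, none of them a current RANK-Fc or passage 2 control tumour, and met the filter only through the passage 1 groups, where it was high. Averaged over treatment states it was at least 1.3-fold lower in passage 2 (limma adjusted p = 0.0203), and between the controls at least 1.36-fold lower (limma adjusted p = 0.117). The averaged call was lost without RANK-Fc passage 1 replicate 1, control passage 1 replicate 1 or control passage 2 replicate 1 (limma adjusted p = 0.061, 0.0835 and 0.121).

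Other type VI genes and those of types VII, XII and XIV varied over the tumours much like type I. Col6a1, a chain of the beaded filaments of type VI collagen around cells, stood at 10.82, 11.15 and 10.25 with prior and current RANK-Fc, 10.91, 10.80 and 12.17 with current RANK-Fc, 12.22, 10.37 and 11.14 with prior RANK-Fc and 10.57 and 10.71 in the passage 2 controls. Col6a1 levels in passage 1 were 11.79, 12.04 and 11.62 with RANK-Fc and 11.87 and 11.57 in the controls. As for Col1a1, the highest passage 2 values lay in current replicate 3 and prior replicate 1, and no comparison passed. Col12a1, a fibril-associated collagen of dense connective tissue, stood at 8.13, 8.64 and 9.05 with prior and current RANK-Fc, 9.08, 8.19 and 11.10 with current RANK-Fc, 10.52, 8.47 and 9.77 with prior RANK-Fc and 7.74 and 8.16 in the passage 2 controls. Col12a1 levels in passage 1 were 9.62, 10.24 and 9.92 with RANK-Fc and 9.65 and 9.91 in the controls. Col7a1, which forms the anchoring fibrils between epithelium and stroma, stood at 10.05, 10.17 and 10.33 with prior and current RANK-Fc, 11.09, 10.05 and 11.79 with current RANK-Fc, 11.56, 10.58 and 11.23 with prior RANK-Fc and 10.65 and 10.23 in the passage 2 controls. Col7a1 levels in passage 1 were 11.38, 11.58 and 11.23 with RANK-Fc and 11.29 and 11.05 in the controls. Both were highest in current RANK-Fc replicate 3, as was Col14a1, a related fibril-associated chain, which ranged from 8.20 to 11.21. A dimmer Col14a1 probe gave 0.09 between the passages, where the brighter gave -0.21 ± 0.44.

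Several collagens with small ranges led a comparison below. Col18a1, the basement membrane collagen that holds endostatin, stood at 9.21, 9.36 and 9.99 with prior and current RANK-Fc, 10.12, 9.68 and 10.55 with current RANK-Fc, 9.63, 9.40 and 10.14 with prior RANK-Fc and 9.54 and 9.82 in the passage 2 controls. Col18a1 levels in passage 1 were 9.82, 9.85 and 9.79 with RANK-Fc and 9.63 and 9.54 in the controls. Col16a1, a fibril-associated collagen, stood at 13.73, 13.92 and 13.11 with prior and current RANK-Fc, 14.32, 13.54 and 14.07 with current RANK-Fc, 13.88, 13.91 and 14.49 with prior RANK-Fc and 14.01 and 14.37 in the passage 2 controls. Col16a1 levels in passage 1 were 13.95, 14.17 and 14.17 with RANK-Fc and 14.02 and 14.52 in the controls. For Col16a1 the 3 tumours with prior and current RANK-Fc were all below both passage 2 controls. Col26a1, a secreted collagen known from testis and ovary, stood at 6.44, 6.83 and 7.09 with prior and current RANK-Fc, 6.61, 6.76 and 6.97 with current RANK-Fc, 6.43, 6.29 and 6.77 with prior RANK-Fc and 5.73 and 6.63 in the passage 2 controls. Col26a1 levels in passage 1 were 7.17, 7.11 and 6.79 with RANK-Fc and 6.60 and 7.04 in the controls. Tumours with current RANK-Fc lay between 6.61 and 6.97 for Col26a1, which was well above background in 11 of 16 tumours, among them 2 of 3 with prior and current RANK-Fc, 1 of 3 with current RANK-Fc and 1 of 2 passage 2 controls. Col26a1 met the filter only through the passage 1 groups. Col20a1, a fibril-associated collagen, stood at 6.95, 7.27 and 6.97 with prior and current RANK-Fc, 6.64, 6.83 and 7.03 with current RANK-Fc, 6.60, 6.90 and 6.57 with prior RANK-Fc and 6.91 and 7.01 in the passage 2 controls. Col20a1 levels in passage 1 were 6.50, 6.68 and 6.49 with RANK-Fc and 6.60 and 6.70 in the controls. The 3 tumours with prior and current RANK-Fc were above all 3 with prior RANK-Fc for Col20a1. This gene was well above background in 13 of 16 tumours but in only 1 of 3 with prior RANK-Fc. Col20a1 differences that include the prior RANK-Fc group are therefore not exact sizes. Col15a1, a relative of Col18a1 in vessel and muscle basement membranes, stood at 6.92, 6.60 and 6.55 with prior and current RANK-Fc, 6.63, 6.98 and 6.96 with current RANK-Fc, 6.62, 6.54 and 6.69 with prior RANK-Fc and 6.77 and 6.71 in the passage 2 controls. Col15a1 levels in passage 1 were 7.13, 6.31 and 7.11 with RANK-Fc and 6.97 and 6.39 in the controls. Its passage 1 values spanned the range of all tumours. The 2 other Col16a1 probes gave 0.27 and 0.32 between the passages, where the brightest gave -0.07 ± 0.21. For the RANK-Fc comparisons the single probes are not given. Under 12 other settings, 1 of which took the mean of a gene's passing probes, Col16a1 ran from -1.23 to -0.47 for prior and current RANK-Fc against control. It ran from -0.56 to -0.26 for current RANK-Fc averaged over backgrounds.

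The study asks first what RANK-Fc does to the tumours, and no collagen passed an adjusted p of 0.05 in any of the 9 comparisons that address it. Background shares are given over all 14131 genes. In passage 1, RANK-Fc against control gave 0 collagens at an unadjusted p under 0.05 (background 1.59%) as well as at the adjusted threshold (background 0%). The 3 of smallest p were Col25a1 at 1.00 ± 0.63, Col4a4 at -0.18 ± 0.13 and Col15a1 at 0.27 ± 0.20, and the median over the 34 was -0.01, equal to that of all genes after rounding.

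In passage 2, current RANK-Fc against control likewise gave 0 collagens at either threshold (background 3.94% unadjusted and 0% adjusted). Of the 34 differences 28 were positive, against 54.9% over all genes, with a median of 0.36 against 0.02 for all genes. Col9a1 came closest, at 0.88 ± 0.41, followed by Col26a1 at 0.50 ± 0.23 and Col12a1 at 1.20 ± 0.64, all with a limma adjusted p of 1.00. The groups overlapped for Col9a1 and Col26a1, and for Col12a1 they did not.

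Prior RANK-Fc against control gave 7 collagens at an unadjusted p under 0.05, or 20.6% of the 34 against a background of 7.63%, all higher with prior RANK-Fc, and 0 at the adjusted threshold (background 0.00708%). These 7 were Col2a1, Col25a1, Col4a6, Col11a1, Col27a1, Col9a2 and Col12a1, with fitted differences from 0.62 to 3.14. Col27a1, above background in all 3 prior RANK-Fc tumours and in neither control, was at least 1.54-fold higher (limma adjusted p = 0.39). It met the filter only through groups in which it was high, prior RANK-Fc among them, so it adds no weight to the share of 20.6%. The median over the 34 collagens was 0.36, against -0.0038 for all genes.

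Prior and current RANK-Fc against the same controls gave 2 collagens at an unadjusted p under 0.05 (background 8.92%) and 0 adjusted (background 0.0708%), with a median of 0.06 over the 34. Col16a1 differed by -0.71 ± 0.29 (limma adjusted p = 0.493), Col26a1 by 0.57 ± 0.24 (limma adjusted p = 0.505), a fitted value that includes a control at 5.73 not above background, and Col4a4, next in order, by 0.27 ± 0.13 (limma adjusted p = 0.579). These comparisons share their 2 control tumours, so their values are given side by side and not set against each other.

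**Figure D4:**
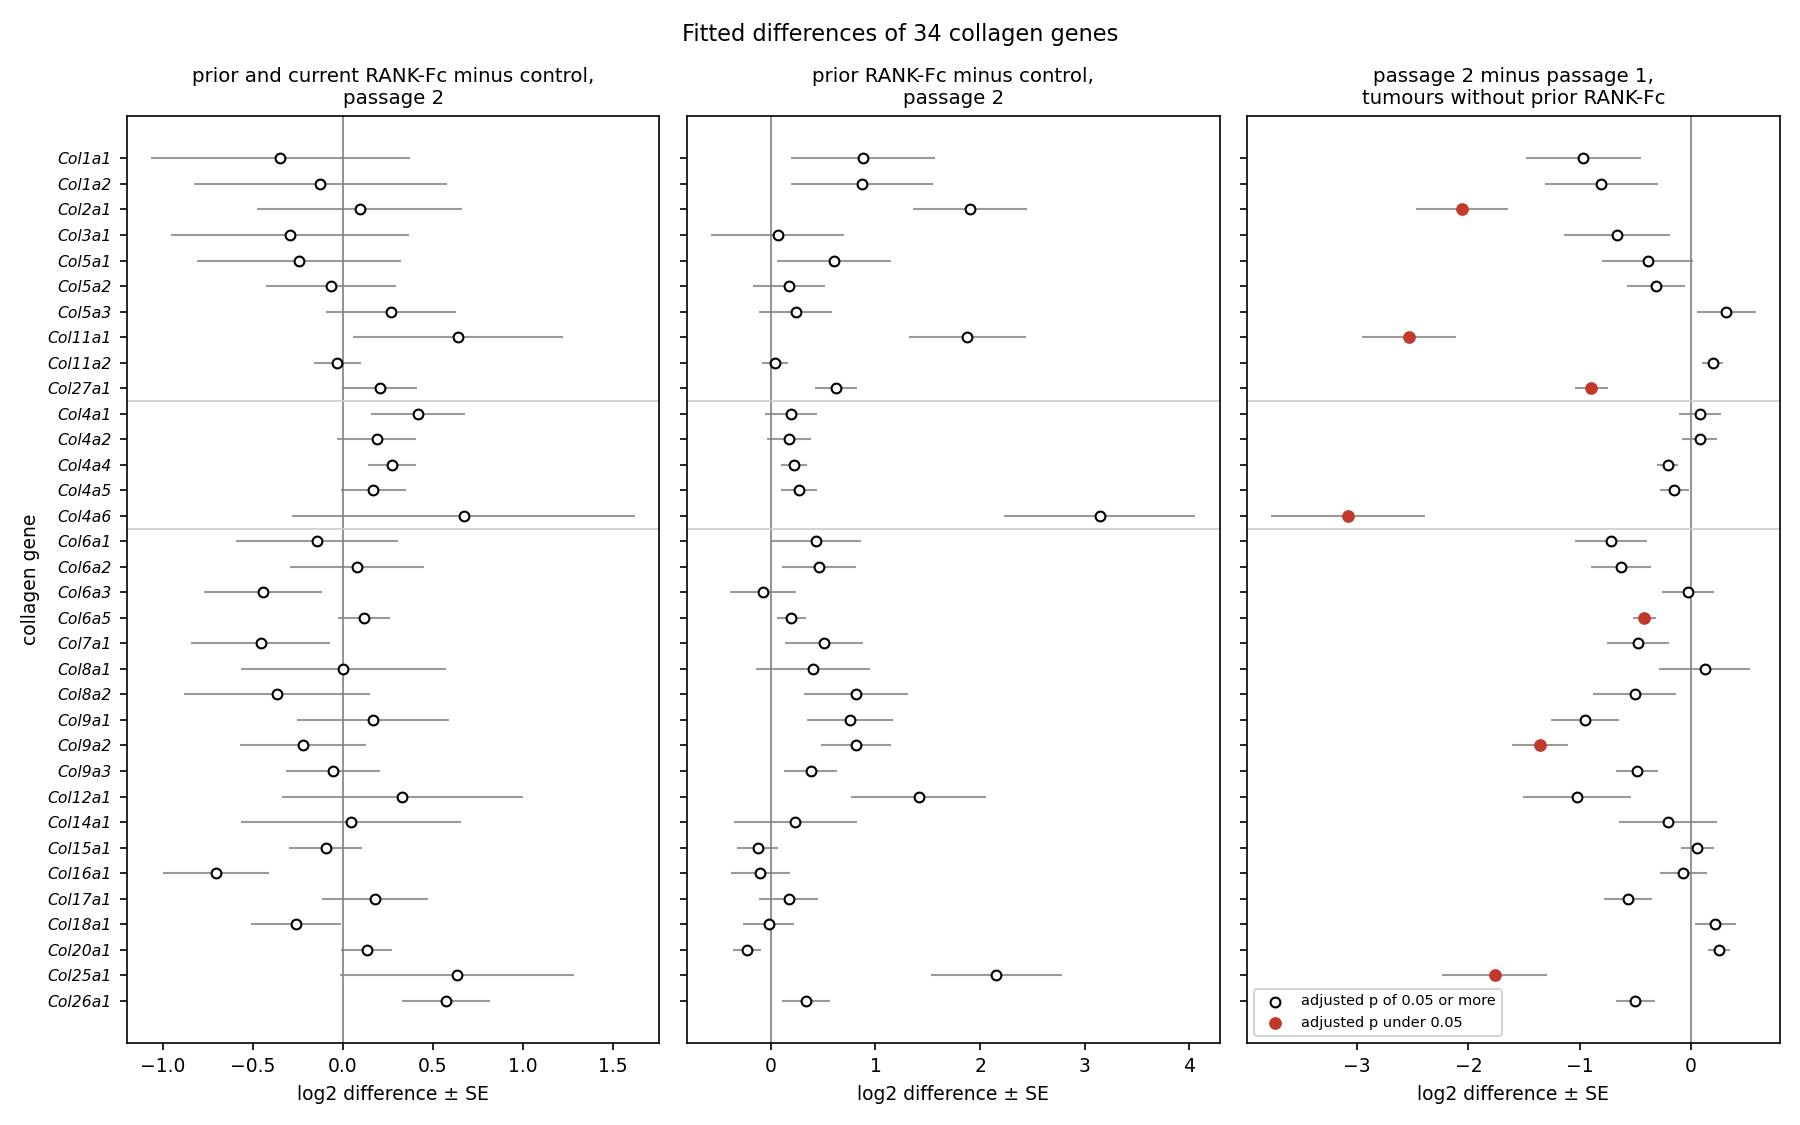
Fitted log2 difference with its SE (horizontal axes, each with its own range) of 34 collagen genes (vertical axis, by class) for prior and current RANK-Fc minus control, prior RANK-Fc minus control, and passage 2 minus passage 1 in tumours without prior RANK-Fc. Filled red points pass an adjusted p of 0.05; there are 7 of them, all in the passage comparison and all below 0. The points of Col27a1, Col6a5, Col26a1, Col4a6, Col2a1, Col4a4, Col20a1 and Col11a2 include passage 2 tumours not above background in at least 1 panel.

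With RANK-Fc in both passages against prior RANK-Fc alone, 10 collagens had an unadjusted p under 0.05 (background 9.89%), 9 of them lower with prior and current RANK-Fc, and 0 passed the adjusted threshold (background 0%). The leading gene was Col2a1, at -1.81 ± 0.49 (limma adjusted p = 0.24), whose groups did not overlap. Col9a2 followed at -1.03 ± 0.30 (limma adjusted p = 0.275) and Col4a6 at -2.47 ± 0.82 (limma adjusted p = 0.324). Under 12 other settings, 1 of which reads Col4a6 by its dimmer probe alone, Col4a6 ran from -2.98 to -0.31. Col8a2, a chain of network-forming type VIII collagen, was at 7.42, 7.47 and 7.68 with prior and current RANK-Fc, against 8.10, 8.04 and 9.60 with prior RANK-Fc alone, and differed by -1.18 ± 0.44 (limma adjusted p = 0.388). With RANK-Fc in both passages against current RANK-Fc alone, 2 collagens had an unadjusted p under 0.05 (background 16.7%), Col18a1 at -0.59 ± 0.22 and Col7a1 at -0.85 ± 0.34, and 0 passed adjusted (background 0.149%). Col20a1 was next, at 0.26 ± 0.12 (limma adjusted p = 0.309). Without current RANK-Fc replicate 2, whose Col7a1 level of 10.05 was as low as those with both treatments, Col7a1 passed with -1.48 (limma adjusted p = 0.0483).

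Averaged over its 3 backgrounds, current RANK-Fc gave 4 collagens at an unadjusted p under 0.05 (background 6.65%) and 0 adjusted (background 0%), led by Col9a2 at -0.63 ± 0.19 (limma adjusted p = 0.679), Col16a1 at -0.36 ± 0.16 and Col2a1 at -0.70 ± 0.31. Averaged over both passage 2 backgrounds, prior RANK-Fc gave 5 collagens, all higher, at an unadjusted p under 0.05 (background 15.6%) and 0 adjusted (background 0.354%), led by Col25a1 at 1.38 ± 0.45 (limma adjusted p = 0.175), Col2a1 at 0.98 ± 0.39 and Col27a1, dim in both controls, at a fitted 0.35 ± 0.14. The share of 14.7% of the 34, to which Col27a1 adds no weight, was near the background.

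The interaction term, which asks whether RANK-Fc in both passages differed from the sum of the separate effects, was negative for 33 of 34 collagens and for 7313 of all 14131 genes. Its median was -0.62 for the collagens against -0.01 for all genes. The terms share the same tumours and many collagens varied together, so the 33 are not independent results. At an unadjusted p under 0.05 it gave 10 collagens, or 29.4% (background 6.74%), of which 9 were negative, and 0 passed adjusted (background 0%). The largest term was Col4a6 at -3.88 ± 1.19 (limma adjusted p = 0.582). Under 12 other settings, 1 of which reads Col4a6 by its dimmer probe alone, it ran from -5.25 to -0.55. Col7a1 had -1.36 ± 0.48 (limma adjusted p = 0.636), Col20a1 0.49 ± 0.17 (limma adjusted p = 0.636) and Col1a1 -2.05 ± 0.89 (limma adjusted p = 0.723). The fibrillar median of -1.28 was -0.60 without current RANK-Fc replicate 3, -1.82 without prior RANK-Fc replicate 2 and -2.04 without current RANK-Fc replicate 2. In that last fit Col4a6, read by its brighter probe, passed at -5.64 (limma adjusted p = 0.049).

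The passages gave the only collagen calls over all tumours. Between controls, 2 of 34 collagens passed, Col11a1 and Col27a1, which is 5.88% against a background of 3.3%, and 11 had an unadjusted p under 0.05, or 32.4% against a background of 15.5%, all lower in passage 2. Averaged over treatment states in tumours without prior RANK-Fc, the 7 genes Col11a1, Col27a1, Col9a2, Col2a1, Col4a6, Col6a5 and Col25a1 passed, all lower in passage 2, which is 20.6% of the collagens against a background of 12%. At an unadjusted p under 0.05 there were 15, of which 14 were lower in passage 2, or 44.1% against 26.6% of all genes. Col27a1, counted in both comparisons, and Col6a5, counted among the 7, met the filter only through groups in which they were high. Their calls therefore add no weight to these shares. Of the 7, 3 were fibrillar, 1 was a basement membrane gene and 3 were others. The median difference was -0.73 for the fibrillar, -0.15 for the basement membrane and -0.48 for the other genes, against -0.0018 for all genes. The count was 15 without current RANK-Fc replicate 3 and 4 without control passage 1 replicate 1.

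Most markers of cartilage, fibroblasts and adipocytes also had lower values in passage 2. Of 8 cartilage markers 5 were tested, and Sox9, Comp, Chad and Cnmd fell by 0.99, 1.07, 1.24 and 1.01 (limma adjusted p = 0.0023, 0.00628, 0.00432 and 0.0331), while Acan, the main proteoglycan of cartilage, differed by 0.11 ± 0.10 and stayed between 6.28 and 6.74 in all tumours. Sox9, a transcription factor of cartilage, is also known from mammary epithelium. Matn1, Matn3 and Hapln1 did not pass the filter. With current RANK-Fc and in the passage 2 controls, Comp lay between 6.46 and 6.66 and Cnmd between 6.14 and 6.48. How near these levels and those of Acan lay to the background of their own probes is not given here. Sizes for Comp and Cnmd are therefore not read as exact, and the steady Acan level is not read as steady expression. The mean of the 5 tested genes lay between 7.24 and 7.44 with current RANK-Fc and between 7.27 and 7.38 in the passage 2 controls, against 7.90 to 8.35 with RANK-Fc and 7.89 to 8.48 in the controls of passage 1. In the prior RANK-Fc group it was 7.57 to 8.11 and in the prior and current group 7.45 to 7.66. Of the 15 fibroblast markers 12 had lower values in passage 2, with a median of -0.68; by limma 0 passed and 5 had an unadjusted p under 0.05, beside the background of 26.6% of all genes. Of the 9 adipocyte markers tested of 10, 8 had lower values in passage 2, with a median of -0.87, and by limma 0 passed and 5 had an unadjusted p under 0.05. Their mean level was 8.09 to 9.32 with current RANK-Fc and 8.17 to 9.70 in the passage 2 controls, against 8.90 to 10.50 with RANK-Fc and 8.96 to 11.14 in the controls of passage 1, so the passages overlapped. The other lists were not mostly lower in passage 2. Values were higher for 6 of 6 skeletal muscle, 8 of 8 T and NK cell and 8 of 11 epithelial markers. They were higher for 6 of 9 pericyte and smooth muscle, 7 of 11 endothelial, 6 of 10 macrophage and 3 of 6 basal and myoepithelial markers. By limma 2 epithelial, 1 pericyte and 1 basal marker passed upward and 1 basal marker downward, beside a background of 12%. The part of any of these lists in the collagen results was not tested.

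The tie to Col1a1 was followed over the 16 tumours, which include pairs that share an array. Permutation shuffled Col1a1 over all 16 tumours without regard to group, passage or array. Its p-values therefore do not separate differences between groups from variation within them. Of the 33 other collagens, 12 correlated positively with Col1a1 at a Benjamini-Hochberg adjusted p under 0.05 over 14116 genes, or 36.4% against 2.54% of all genes, and none correlated negatively. Col1a2 had r = 0.95 and rho = 0.90 (permutation p = 1e-05, the smallest that 100000 resamples can give, adjusted p = 0.00228 and 0.00344). Col5a1 (r = 0.94), Col12a1 (r = 0.93), Col3a1 (r = 0.91), Col6a1 (r = 0.91), Col5a2 (r = 0.90), Col6a2 (r = 0.88), Col7a1 (r = 0.88), Col6a3 (r = 0.87), Col14a1 (r = 0.82), Col9a1 (r = 0.79) and Col4a6 (r = 0.75) completed the 12, with rho from 0.74 to 0.91 and permutation p from 1e-05 to 0.00116. Without the 2 tumours farthest from the median of Col1a1, current RANK-Fc replicate 3 and prior RANK-Fc replicate 1, r was 0.91 for Col1a2, 0.88 for Col6a1 and 0.83 for Col4a6. With group means removed, r of the 12 ranged from 0.59 to 0.94. Col4a1 and Col4a2 had r of -0.04 and 0.03.

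For Col11a1, Col2a1 and Col9a2, r was higher without those same tumours. Col11a2 went the other way, with r = -0.27 over 16 tumours and -0.59 over 14. Col11a1 had r = 0.65 with Col1a1 over 16 tumours and 0.89 over 14, Col2a1 0.38 and 0.79, and Col9a2 0.38 and 0.82. In current RANK-Fc replicate 3, the tumour highest for Col1a1, Col2a1 was 6.64 and Col9a2 10.48, Col9a2's being the lowest but for 1 tumour. When the group means were first removed, r was 0.94 for Col1a2 but -0.23 for Col2a1 and -0.11 for Col9a2, as a description of how these genes varied within groups.

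**Figure D5:**
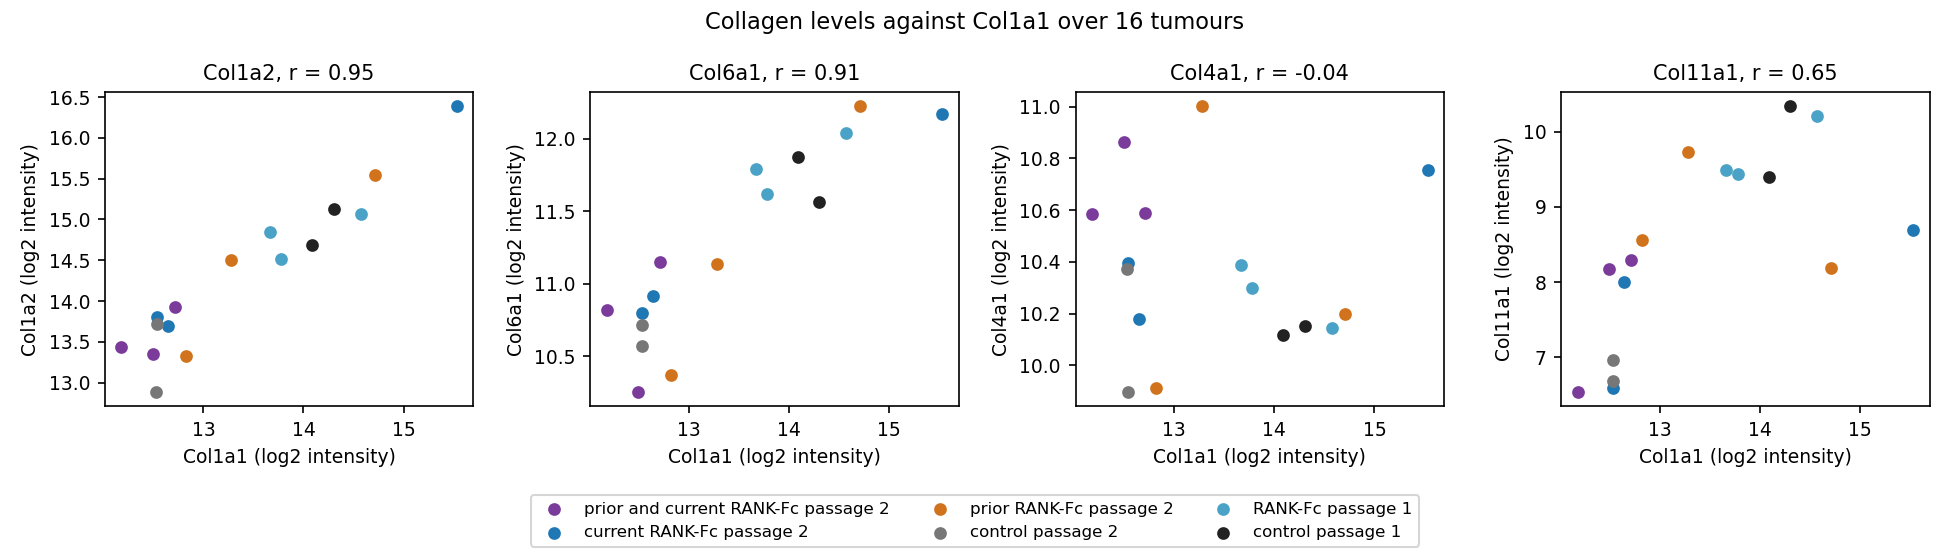
Levels of Col1a2, Col6a1, Col4a1 and Col11a1 (log2 intensity, vertical axes) against Col1a1 (log2 intensity, horizontal axes), with 1 point per tumour coloured by group and Pearson's r in each title. Col1a2 and Col6a1 rise along a line with r of 0.95 and 0.91, Col4a1 shows no trend, and for Col11a1 the tumours at 15.53 and 14.71 for Col1a1 fall below the passage 1 tumours.

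The 5 genes of highest correlation with Col1a1 were Cpz (r = 0.97), a carboxypeptidase that binds Wnt proteins, Cpxm2 (r = 0.96), a secreted carboxypeptidase-like protein, B3gnt9 (r = 0.95), a glycosyltransferase, Col1a2 (r = 0.95) and Loxl3 (r = 0.95), a lysyl oxidase that crosslinks collagen. All had a permutation p of 1e-05.

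Among the members with a RefSeq promoter, 35 of 44, 12 held the letters CCAAT on either strand within 250 bases before to 50 after the start, against 37.9% of 27025 promoters, 5 held TATAAA, against 14.2%, and 22 held GGGCGG, against 35.9%. The windows of Col1a2, which followed Col1a1, and of Col11a1, which fell most between passages among the fibrillar genes, are shown with CCAAT and its reverse complement in capitals; they are on build GRCm38.p6, 5′ to 3′ on the gene's strand.
Col1a2 promoter, chr6:4505368-4505667, plus strand: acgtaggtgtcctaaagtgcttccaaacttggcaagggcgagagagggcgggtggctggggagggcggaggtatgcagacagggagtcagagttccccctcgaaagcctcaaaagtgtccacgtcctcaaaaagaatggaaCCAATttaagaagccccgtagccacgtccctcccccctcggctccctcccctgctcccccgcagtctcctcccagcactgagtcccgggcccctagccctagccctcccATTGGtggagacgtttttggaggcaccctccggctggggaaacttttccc
Col11a1 promoter, chr3:114030290-114030589, plus strand: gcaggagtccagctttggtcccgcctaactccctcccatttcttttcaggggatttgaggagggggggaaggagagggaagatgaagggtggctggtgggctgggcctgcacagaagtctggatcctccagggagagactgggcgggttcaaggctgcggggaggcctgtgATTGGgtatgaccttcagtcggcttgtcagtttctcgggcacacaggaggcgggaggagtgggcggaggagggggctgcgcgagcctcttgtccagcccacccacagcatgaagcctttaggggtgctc
Col1a2 holds 2 such matches, the first beginning 109 bases before the start, and Col11a1 holds 1, beginning 79 bases before it. A match is a description of these letters and not of a bound site.

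The enzymes and binding partners of collagen were read from a list of 44 genes for chain modification, folding, secretion, processing, crosslinking and cell contact, of which 43 were matched and 37 tested. In the 9 comparisons on RANK-Fc, 0 of 37 passed an adjusted p of 0.05; at an unadjusted p under 0.05 the most were 10 for prior and current against current RANK-Fc (background 16.7%) and 11 for the interaction (background 6.74%). Bmp1, the protease that removes the C-terminal propeptide of fibrillar procollagens, led the first of these at -0.97 ± 0.29 (limma adjusted p = 0.149), and had -1.57 ± 0.41 in the interaction (limma adjusted p = 0.508). P3h4 came closest of all with prior RANK-Fc averaged over backgrounds, at 0.65 ± 0.14 (limma adjusted p = 0.0734). Plod2, a lysyl hydroxylase that prepares crosslinks, had -0.92 ± 0.24 for prior and current against prior RANK-Fc (limma adjusted p = 0.233).

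Between passages, 2 genes rose and 3 fell of the 37 when averaged over treatment states, a share near the background of 12% of all genes. P4ha2, a catalytic subunit of the prolyl 4-hydroxylase that stabilises the triple helix, stood at 10.77, 10.82 and 10.85 with current RANK-Fc and 10.94 and 10.80 in the passage 2 controls, against 9.61, 9.84 and 9.02 with RANK-Fc and 9.05 and 9.17 in the controls of passage 1, without overlap, and rose by 1.46 ± 0.22 (limma adjusted p = 0.0012). P4ha1, the related subunit, rose by 0.51 ± 0.15 (limma adjusted p = 0.0454). Serpinh1, the collagen chaperone HSP47, stood at 11.25, 10.48 and 12.57 with current RANK-Fc and 10.33 and 10.59 in the passage 2 controls, against 11.91, 12.25 and 12.33 with RANK-Fc and 12.12 and 12.33 in the controls of passage 1. It fell by 1.21 ± 0.26 (limma adjusted p = 0.0106), with current replicate 3 above all others. Adamts14, a procollagen N-propeptidase, fell by 0.71 ± 0.15 (limma adjusted p = 0.00787), and P3h4, part of a complex that modifies collagen lysines in the endoplasmic reticulum, fell by 0.82 ± 0.15 (limma adjusted p = 0.00416). Between the controls alone 1 gene rose and 2 fell of the 37, beside a background of 3.3% of all genes. P4ha2, Adamts14 and Serpinh1 passed there in the same directions, at 1.68 ± 0.33, -1.08 ± 0.22 and -1.67 ± 0.40 (limma adjusted p = 0.0185, 0.0232 and 0.0419).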

How the data were processed

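RNA of 16 tumours was hybridised to 8 Agilent arrays with 2 colours, 1 tumour per channel, and the submitters' processing notes name Agilent Feature Extraction, version 10.7.3.1, for reading the images. The deposited files hold median spot and background intensity values, linear and with no normalisation across arrays, per the file headers. Processed intensity values and log10 ratios, also deposited, were made by Feature Extraction, per the file headers. The deposited series table, with 8 columns, was not used.

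In R 4.3.3 with limma 3.58.1, backgrounds were corrected (normexp, offset 50), dyes loess normalised and channels scaled (Aquantile). Genes are named through RefSeq accessions (28026 of 55681 probes) and read by their brightest probe passing the filter. limma fitted the 6 groups and the dye, with the array as a block (correlation 0.214, corrected for bias by simulation), and p-values were Benjamini-Hochberg adjusted over 14131 genes. The array number limits precision. Named are 6 major genes, all past an adjusted p of 0.05, the 3 of smallest p per comparison and the 2 of widest range per class. Members and lists were chosen with earlier results of these data known; Col8a2 and Col14a1 were picked after their values were seen.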

Additional observations from a re-analysis of the deposited data

How the results depend on the processing

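No paired analysis was possible because the labels number no tumours across groups and do not say which passage 1 tumour a passage 2 tumour grew from. The count of collagens in the 9 comparisons on RANK-Fc was 0 under each of the other 12 settings, and from 0 to 1 with a tumour left out. The passage count of 2 between controls was 1 with no background subtraction (Col27a1 -1.02), 1 with the filter on all channels, 0 with log ratios within arrays alone, 12 with the control groups alone and 0 to 1 with a tumour left out. The averaged passage count of 7 was 4 with the filter on all channels, which leaves out dim genes, 0 with log ratios alone, and 4 to 15 with a tumour left out. With log ratios alone the 7 genes were at -2.66 (Col11a1), -0.975 (Col27a1), -1.04 (Col9a2), -1.98 (Col2a1), -2.21 (Col4a6), -0.327 (Col6a5) and -2.24 (Col25a1), with limma adjusted p from 0.0678 to 0.607. Log ratios within arrays use the difference of 2 tumours on an array, and their class medians were -0.0393 (other) for current RANK-Fc, 0.0556 (fibrillar) and 0.0159 (other) for prior, and -0.60, -0.0775 and -0.74 (fibrillar, basement membrane, other) for prior and current against control. They were -0.74 (other) against prior RANK-Fc, -0.36 (other) for prior averaged, -0.42, -0.48 and -0.18 for the passage controls and -0.19 (fibrillar) for the averaged passage. The median of the other collagens in the interaction was -0.96 with processed signals and -0.94 with the filter on all channels. Without a filter it was -0.0072 for prior and current against current RANK-Fc and -0.30 for the passage controls. With a tumour left out, medians ran from 0.21 to 0.87 (prior, other), 0.035 to 1.07 (current, fibrillar), -0.82 to -0.0465 (prior and current against current, other) and -2.04 to -0.60 (interaction, fibrillar). The median r with Col1a1 of 0.62 was 0.72 without the 2 farthest tumours and 0.46 for deviations from group means. Median centring moved the median of all genes by -0.16 in the passage controls and up to 0.20 in the RANK-Fc comparisons, and ended the Col6a5 call (limma adjusted p = 0.121). Processed signals ended the Col4a6 call at -4.68 (limma adjusted p = 0.0512). The cause of these changes was not tested. Of the values for named genes, 686 kept their side of the threshold, 32 lost it, 3 gained it and 0 reversed direction. The 2 or 3 tumours a group and dim probes limit these values. By the probe read for each gene, Col2a1 was above background in 15, Col4a6 and Col4a4 in 14 and Col20a1 in 13 of 16 tumours. Col27a1 and Col11a2 were above it in 12, Col26a1 in 11 and Col6a5 in 6 of 16.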

Other observations

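Pairs of chains that share a trimer differed in how closely they ran together over the 16 tumours. The difference between their deviations had an SD of 0.19 for Col6a1 and Col6a2 and 0.31 for Col1a1 and Col1a2. It was 0.74 for Col9a1 and Col9a2, with a range from -1.01 to 2.19. Control passage 2 replicate 1 was the lowest tumour for 8 of 34 collagens and the tumour with prior and current RANK-Fc replicate 1 for 7.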
